A study of Homo sapiens with 6 samples.

Results

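GPRC5A is an orphan receptor of the GPRC5 family whose RNA was first known for its induction by retinoic acid, and it is described here with 9 genes of its family and of the retinoic acid pathway. The 10 genes were taken by symbol: the receptors GPRC5A, GPRC5B and GPRC5C, the retinoic acid receptors RARA, RARB and RARG, and the retinoid-responsive genes CRABP2, CYP26A1, CYP26B1 and DHRS3. All 10 were found among the 58395 genes of the count files, and all 10 were among the 17261 genes with enough reads to be tested. GPRC5A was chosen by measured values: its read counts in these same 6 libraries had placed it among the few genes that differed between the groups, so its group difference is given as a description with no test. The other 9 were included for their family or pathway.

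RNA was sequenced from 6 clonal lines of HEK293, an established human line derived from embryonic kidney. In 3 lines (2, 8 and 9) the overexpressed protein was GST-3F, a tagged glutathione S-transferase that serves as the control, and in the other 3 (4, 11 and 12) it was NOCT ∆(2-15)-3F, tagged nocturnin without residues 2 to 15. Nocturnin is an enzyme of the CCR4 family that acts on NADP(H), and the comparison asks how RNA levels differ in lines that carry this form of it. Each line is 1 clone grown for 3 days, so differences between clones of the same construct are part of the spread, and the spread is that between lines rather than between cultures of a line.

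Retinol enters cells with the help of STRA6, is carried by binding proteins, and is oxidised first to retinal and then to retinoic acid. Retinoic acid binds RAR and RXR nuclear receptors, which sit as pairs on paired hexamer sites in DNA and switch from holding corepressors to holding coactivators. Several targets close a feedback loop: CYP26 enzymes break retinoic acid down, DHRS3 returns retinal to retinol, and RARB is itself a receptor. In embryonic kidney the pathway is known for its part in branching of the ureteric bud.

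RARB and CYP26A1 carry the letters of such a site next to a start. Their sequences are shown because they held the only matches in the windows searched for these genes. No link between a match and the RNA level of a gene was tested. The search was for direct repeats of 2 hexamers, each being the consensus AGGTCA or one of the variants AGTTCA and, beside it, GGGTCA and, as the last form, GGTTCA, with 1, 2 or 5 bases between them, on both strands, in RefSeq windows (GRCh38.p14) from 250 bases before to 50 bases after a start. Windows were supplied for 8 of the 10 genes, 16 in all; GPRC5A and GPRC5C had none. Below, letters run 5′ to 3′ on the strand of the gene, and capitals mark the match.
RARB, chr3:25428143-25428262, plus strand: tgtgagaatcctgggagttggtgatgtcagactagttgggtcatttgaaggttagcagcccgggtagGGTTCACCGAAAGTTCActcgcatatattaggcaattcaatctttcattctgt
CYP26A1, chr10:93073798-93073824, plus strand: aaagaTGAACTTTGGGTGAACTaattg

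A match was found in 1 of the 4 RARB windows and in 1 of the 2 CYP26A1 windows. Both matches have 5 bases between the hexamers. In RARB the match lies 53 to 37 bases before a RefSeq start, on the strand of the gene, inside an intron of 1 longer GENCODE transcript. In CYP26A1 it lies 90 to 74 bases before a start and is read on the opposite strand, as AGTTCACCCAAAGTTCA, inside an exon of 1 longer transcript. The matches are 17 bases long and differ at 2 bases when each is read on its own strand. Of all 35116 windows, 0.0883% held a match with this spacing and 0.259% held a match with any of the 3 spacings. A match is a stretch of letters and says nothing of binding in these cells.

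The libraries held between 19729745 and 24422406 reads on genes, and the spike-in RNAs made up 15.1 to 17.1 counts per 1000 gene counts. Reads of the GST construct numbered 46 to 88 per GST library and 0 or 1 per NOCT library, and reads of the NOCT construct 46 to 82 per NOCT library and 3 to 7 per GST library, as labelled. Of 8 genes typical of HEK293, 7 averaged at least 1 TPM (a level scaled for gene length and library size), NEFM being under that in all lines but NOCT line 12 (4.44 TPM). PAX2, a kidney transcription factor gene of that list, was at 1.796 to 2.45 TPM in GST lines and 0.370 to 0.618 TPM in NOCT lines. The keratin genes of that list were higher in NOCT lines. KRT8 was at 31.3 to 38.3 TPM in GST and 45.8 to 114 TPM in NOCT lines, KRT18 at 56.03 to 63.9 and 66.3 to 130 TPM. INA was at 9.89 to 16.2 and 19.7 to 34.4 TPM, while NEFL, NEFM, VIM and CDH2 overlapped between the groups. By CPM, the groups did not overlap for 20.0% of all genes tested. Of the 8 genes, 0 were called in either direction in the edgeR test described below, where 0.0579% of all genes were. Of the markers of blood cells and of endothelium, 0 of 5 and 0 of 4 averaged at least 1 TPM, with CD3E and HBB at 0 counts in every library. Of the fibroblast markers 1 of 5 did, with COL1A2 at 0. NOCT line 12 stood apart: with it left out, edgeR's quasi-likelihood test called 970 genes between the groups at a Benjamini-Hochberg adjusted p of 0.05, against 10 with all 6 lines. Results that rest on it are therefore given with and without it.

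GPRC5A was the most abundant of the 10 genes in NOCT lines, and in GST lines its TPM overlapped those of RARB and DHRS3. Its gene (ENSG00000013588) spans bases 12890782 to 12917937 of chromosome 12 (GRCh38), on the plus strand. GST lines 2, 8 and 9 gave it 508, 829 and 643 counts, equal to 26.8, 38.5 and 31.6 CPM (counts scaled to a common library size). NOCT lines 4, 11 and 12 gave it 2955, 2715 and 2127 counts, equal to 116, 122 and 107 CPM. All 3 NOCT lines were thus above all 3 GST lines, and the NOCT lines lay 3.59, 3.77 and 3.30 times the GST mean. The fitted log2 fold change was 1.83 ± 0.14 (SE, n = 3 lines per group), from 32.3 ± 5.87 to 115 ± 7.58 CPM (SD). Across all genes tested, 0.0232% were called higher in NOCT lines and 10.5% had every NOCT line above every GST line.

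The lines of a group were closer together for GPRC5A among NOCT than among GST lines. Its highest line was 1.44 times its lowest among GST lines and 1.14 times among NOCT lines. For comparison, tested genes averaging under 1 CPM, or without reads in some line, were set aside. Of the remaining genes, 25.2% varied at least that much among GST lines and 78.4% among NOCT lines. NOCT line 12, which stood apart over the whole data set, was close to lines 4 and 11 for this gene. The log2 fold change was 1.88 without that line, and it ranged from 1.71 to 1.98 over the 14 other settings and omissions tried. GPRC5A was chosen on these same values, so its small NOCT spread and steady fold change are a description and not support. The authors' deposited table gives GPRC5A a shrunken log2 fold change of 1.62.

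**Figure D1:**
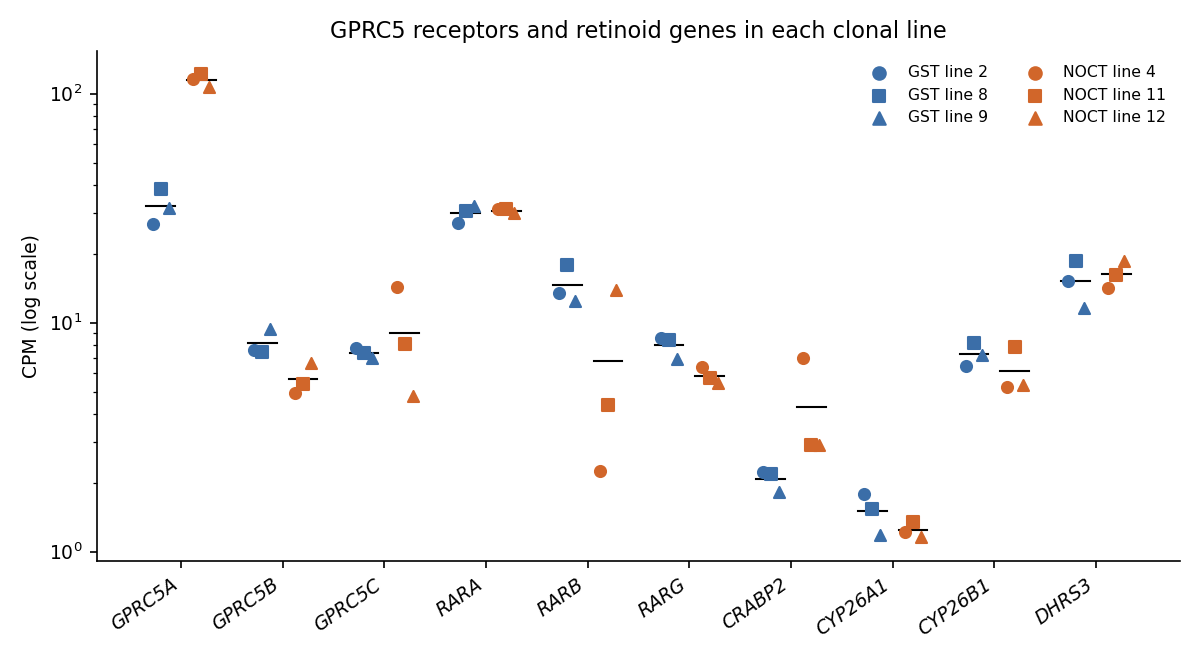
CPM of each of the 10 genes (log axis) in GST lines (blue) and NOCT lines (orange), with a horizontal bar at each group mean of 3 lines. GPRC5A is at 107 to 122 CPM in NOCT lines and 26.8 to 38.5 in GST lines, while RARB, GPRC5C and CRABP2 spread widely among the NOCT lines.

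Some markers of epithelia, where GPRC5A is itself known to be expressed, were higher in the same lines. The summed level of the 7 epithelial genes listed was 19.5 to 53.9 TPM in GST lines and 209 to 272 TPM in NOCT lines. Of the 7, 4 averaged at least 1 TPM and 1 was called higher, beside 0.0232% of all genes tested. As the list was written with earlier results of these data known, that call is a description. The called gene was KRT19, an epithelial keratin, at 6.82 to 12.2 TPM in GST lines and 114 to 146 TPM in NOCT lines. EPCAM, an epithelial adhesion molecule, was at 9.87 to 36.2 and 87.0 to 112 TPM. These 2 genes made up most of the sums. CDH1, the epithelial cadherin, overlapped between the groups at 0.897 to 3.35 and 1.77 to 4.92 TPM, and CLDN7, a tight junction gene, at 0.931 to 2.22 and 1.23 to 13.2 TPM. ESRP1, an epithelial splicing factor gene, was at 0.0554 to 0.349 and 0.437 to 2.42 TPM. KRT7, a second keratin gene of the list, was at or below 0.119 TPM and CLDN4 at or below 0.517 TPM in every line, so that neither reached 1 TPM. In bulk RNA, more cells of a type and more RNA per cell cannot be told apart, and the part of these markers in the GPRC5A result was not tested.

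The genes beside GPRC5A on chromosome 12 did not share a change of that size. The nearest tested genes before it were DDX47, an RNA helicase gene, at 0.15 ± 0.23 on the log2 scale (SE, edgeR adjusted p 0.804), and APOLD1, an endothelial early response gene, with 0.68 ± 0.19 (edgeR adjusted p 0.205). APOLD1 was at 7.23 to 11.6 CPM in GST lines and 14.9 to 16.6 CPM in NOCT lines, so its groups did not overlap. APOLD1 and DDX47 overlap each other on the same strand, and reads from the shared stretch cannot be assigned to one of them. After GPRC5A came HEBP1, a heme-binding protein gene, with -0.28 ± 0.27 (edgeR adjusted p 0.679) and the pseudogene HTR7P1 with 0.25 ± 0.18 (edgeR adjusted p 0.573). Of 15 tested genes starting within 1000 kb, 11 had a fitted value above 0, 3 had groups that did not overlap and 0 were called, with a median log2 fold change of 0.17 and a highest of 0.86. Over all genes 20.0% did not overlap and 0.0579% were called, so the counts of non-overlapping and of called genes were near the background. Fitted values above 0 were found for 8747 of all 17261 genes tested, with a median of 0.00465. The higher share and median near GPRC5A were not tested. With the level of up to 50 neighbours on each side taken out of the fit, GPRC5A stayed at 1.795.

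**Figure D2:**
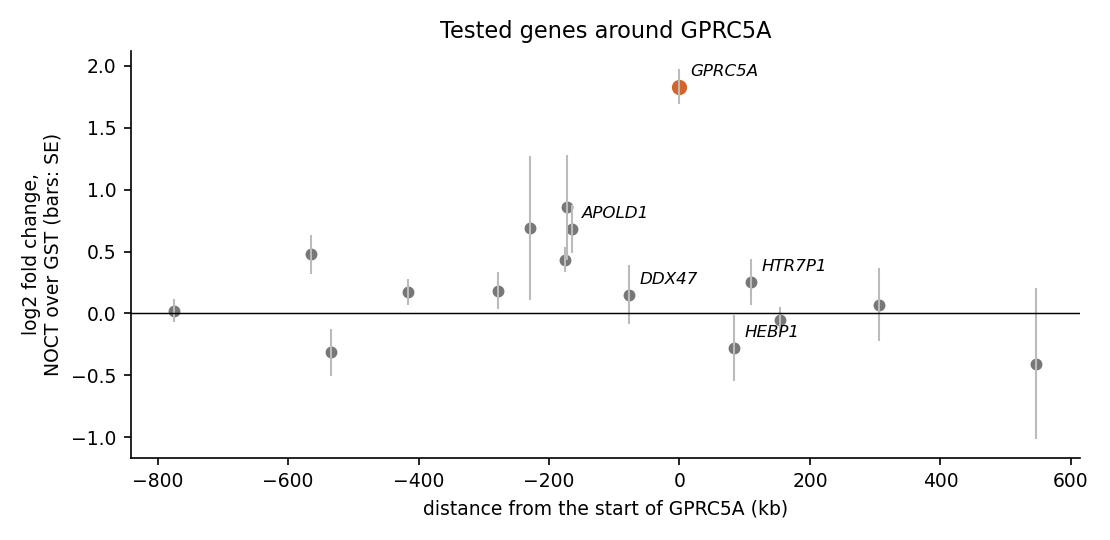
Log2 fold change between NOCT and GST lines (bars: SE) of the tested genes starting within 1000 kb of GPRC5A, against distance from its start in kb. GPRC5A stands at 1.83 and the other 15 genes lie between -0.41 and 0.86.

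The 5 genes nearest to GPRC5A in pattern were sought among 14930 genes, by the Euclidean distance of centred log2(CPM + 1) values over the 6 lines, where the median gene is 2.29 away. SPARC, a matricellular glycoprotein gene, was nearest at 0.27, with 20.2, 30.4 and 20.6 CPM in GST lines 2, 8 and 9 and 75.01, 81.4 and 71.9 CPM in NOCT lines 4, 11 and 12. It shared with GPRC5A the higher value of GST line 8 and the lowest NOCT value in line 12. MICB, a ligand gene of the NKG2D immune receptor, followed at 0.76, then NMUR2, a neuromedin U receptor gene, at 0.77, IGFBP7, an insulin-like growth factor binding protein gene, at 0.78, and SP100, a nuclear body gene, at 0.83. Of the other 9 genes described here, CRABP2 was closest, at 1.65 and rank 301, and RARB was among the farthest, at 4.15 and rank 14856. These are likenesses over 6 libraries in which the group difference dominates, and they are a description.

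No other GPRC5 receptor was higher in all 3 NOCT lines. GPRC5B (ENSG00000167191; chromosome 16, 19856691 to 19886167, minus strand), an orphan receptor known in brain and kidney, was at 7.60, 7.43 and 9.34 CPM in GST lines 2, 8 and 9. It was at 4.95, 5.38 and 6.68 CPM in NOCT lines 4, 11 and 12. Every NOCT line was below every GST line, as for 9.54% of all genes tested. The log2 fold change of -0.52 ± 0.20 (SE) did not pass over all genes (edgeR adjusted p 0.301, unadjusted p 0.0305).

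GPRC5C (ENSG00000170412; chromosome 17, 74424851 to 74451653, plus strand), a receptor known in kidney tubules, had nearly the same level in the GST lines, at 7.76, 7.34 and 6.98 CPM. In NOCT lines 4, 11 and 12 it was at 14.4, 8.03 and 4.77 CPM, so line 4 was above, line 12 below and line 11 slightly above the GST lines. Its highest NOCT line was 3.01 times its lowest. Of the genes kept for the GPRC5A spread comparison, 4.35% reached that spread among NOCT lines. The log2 fold change was 0.30 ± 0.35 (SE, edgeR adjusted p 0.740), and it was -0.20 without NOCT line 4 and 0.60 without NOCT line 12. GPRC5D, the fourth member of the family, had 0 CPM in every library and could not be tested.

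On the scale of TPM, GPRC5A made up more of the family in NOCT lines. Summed over GPRC5A, GPRC5B and GPRC5C, the level was 14.2 to 19.2 TPM in GST lines and 40.3 to 50.4 TPM in NOCT lines. GPRC5A held 60.1%, 69.2% and 62.2% of that sum in GST lines 2, 8 and 9. It held 84.4%, 88.9% and 88.8% in NOCT lines 4, 11 and 12. GPRC5A was the most abundant of the 3 in every line.

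RARA (ENSG00000131759; chromosome 17, 40309192 to 40357643, plus strand), the broadly expressed receptor, varied least of the 10 genes among NOCT lines. It was at 27.3, 30.7 and 32.3 CPM in GST lines 2, 8 and 9 and at 31.4, 31.2 and 30.0 CPM in NOCT lines 4, 11 and 12, all within the GST range. The log2 fold change was 0.03 ± 0.11 (SE, edgeR adjusted p 0.912). RARA-AS1, on the opposite strand, had 10 to 22 counts per library.

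RARG (ENSG00000172819; chromosome 12, 53210567 to 53232980, minus strand), a receptor known from skin and cartilage, had all 3 NOCT lines below all 3 GST lines. It was at 8.55, 8.36 and 6.93 CPM in GST lines 2, 8 and 9 and at 6.41, 5.74 and 5.47 CPM in NOCT lines 4, 11 and 12. The log2 fold change of -0.43 ± 0.18 (SE) did not pass over all genes (edgeR adjusted p 0.336, unadjusted p 0.0415).

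RARB (ENSG00000077092 on chromosome 3, 25174332 to 25597932, plus strand), the receptor with the first match printed above in 1 of its 4 windows, divided the NOCT lines. GST lines 2, 8 and 9 gave 255, 386 and 254 counts, equal to 13.5, 17.9 and 12.5 CPM. NOCT lines 4, 11 and 12 gave 57, 97 and 277 counts, equal to 2.24, 4.35 and 13.9 CPM. Lines 4 and 11 were therefore at 0.153 and 0.297 times the GST mean, below every GST line, while line 12 was at 0.951 times it, within the GST range. The highest NOCT line was 6.21 times the lowest, while among GST lines the highest was 1.44 times the lowest. Of the genes kept for the GPRC5A spread comparison, 1.30% reached the RARB spread among NOCT lines.

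Over all 6 lines the RARB difference did not pass, at -1.11 ± 0.56 on the log2 scale (SE, edgeR adjusted p 0.423). Without NOCT line 12 it was -2.16 ± 0.31 (edgeR adjusted p 0.00844), in a fit that called 5.42% of all genes. Without a filter on low counts RARB also passed at -1.11 (edgeR adjusted p 0.0402), in a fit that called 2.57%. DESeq2 gave -1.11 (adjusted p 0.529), limma voom -1.56 (adjusted p 0.247), and the authors' deposited table holds a shrunken -0.31 (adjusted p 0.581). The 100 nearest expressed genes deviated by only 0.10, 0.08 and -0.10 (median log2) in NOCT lines 4, 11 and 12, and with them taken out RARB was at -1.10. TOP2B, which overlaps RARB on the opposite strand, had 3717 to 4355 counts per library, and reads of the separate RARB starts were not told apart.

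As a share of the summed TPM of the 3 receptors, RARB held 32.9%, 37.4% and 29.2% in GST lines 2, 8 and 9. It held 7.14% and 13.2% in NOCT lines 4 and 11 and 33.7% in NOCT line 12. RARA held 50.04% to 59.1% in GST lines, 78.1% and 74.2% in NOCT lines 4 and 11, and 56.7% in NOCT line 12. The sum itself was 29.7 to 37.7 TPM in GST lines and 26.3 to 31.6 TPM in NOCT lines, so these ranges overlapped.

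**Figure D3:**
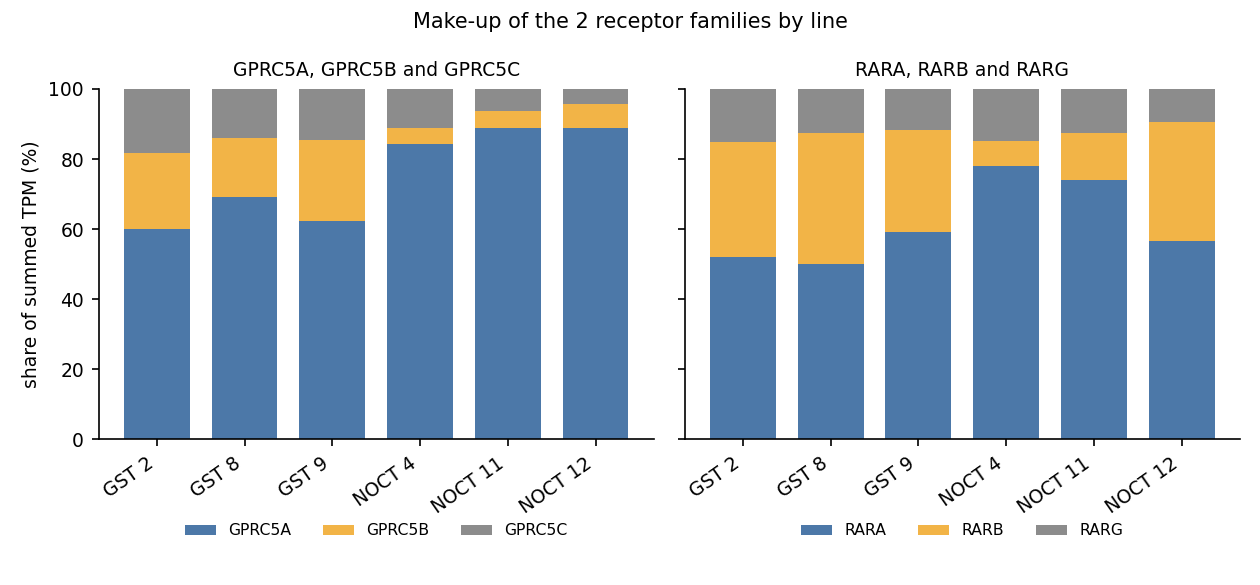
Share (percent) of the summed TPM of the GPRC5 receptors (left) and of the retinoic acid receptors (right) held by each gene in each line. GPRC5A holds 84.4% to 88.9% in the NOCT lines, and the RARB share of NOCT line 12 (33.7%) is like that of the GST lines.

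Of the retinoid partners RXR, RXRA, which pairs with all RARs, was at 38.3, 43.6 and 42.7 CPM in GST lines and 35.03, 31.5 and 22.5 CPM in NOCT lines 4, 11 and 12. Its groups did not overlap, and its log2 fold change of -0.48 ± 0.17 (SE) did not pass (edgeR adjusted p 0.262). RXRG was below the filter. Of the 5 receptors tested, 0 were called and 2 had an unadjusted p under 0.05, both lower in NOCT lines, where 6.52% of all genes did.

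CRABP2, CYP26A1, CYP26B1 and DHRS3 are textbook reporters of retinoic acid exposure. CRABP2 (ENSG00000143320; chromosome 1, 156699606 to 156705816, minus strand), which delivers retinoic acid to the receptors in the nucleus, had all 3 NOCT lines above all 3 GST lines, by unequal amounts. GST lines 2, 8 and 9 gave 42, 47 and 37 counts, equal to 2.22, 2.18 and 1.82 CPM. NOCT lines 4, 11 and 12 gave 179, 65 and 58 counts, equal to 7.04, 2.92 and 2.91 CPM. Line 4 was at 3.39 times the GST mean, line 11 at 1.41 and line 12 at 1.40 times.

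The CRABP2 log2 fold change of 1.05 ± 0.38 (SE) did not pass over all genes (edgeR adjusted p 0.282, unadjusted p 0.0250), and without NOCT line 4 it was 0.49. The authors' deposited table gives it 0.61 (adjusted p 0.142). NOCT line 4 was also the highest line for GPRC5C and the lowest for RARB. Fewer than 50 counts per GST library make this gene imprecise in that group.

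CYP26A1 (ENSG00000095596 on chromosome 10, 93073475 to 93077890, plus strand), the retinoic acid hydroxylase with the second match printed above, was the least abundant of the 10 genes. GST lines 2, 8 and 9 gave 34, 33 and 24 counts and NOCT lines 4, 11 and 12 gave 31, 30 and 23. The groups overlapped at 1.18 to 1.795 and 1.155 to 1.35 CPM, and the fitted difference was -0.27 ± 0.28 on the log2 scale (SE, edgeR adjusted p 0.697). Its highest NOCT line was 1.17 times its lowest, at 23 to 31 counts per NOCT library.

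CYP26B1 (ENSG00000003137; chromosome 2, 72129238 to 72148038, minus strand), a second retinoic acid hydroxylase, was at 6.50, 8.18 and 7.23 CPM in GST lines 2, 8 and 9. In NOCT lines 4, 11 and 12 it was at 5.23, 7.85 and 5.32 CPM, so line 11 lay within the GST range and the others below. The log2 fold change was -0.25 ± 0.22 (SE, edgeR adjusted p 0.648). Its neighbours on chromosome 2 were at -0.34 (median log2 deviation) in NOCT line 4, and with neighbours taken out the log2 fold change was -0.10.

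DHRS3 (ENSG00000162496; chromosome 1, 12567910 to 12617731, minus strand), a retinal reductase, was at 15.2, 18.6 and 11.6 CPM in GST lines 2, 8 and 9 and at 14.2, 16.2 and 18.5 CPM in NOCT lines 4, 11 and 12. All NOCT lines lay within the GST range, and the log2 fold change was 0.10 ± 0.20 (SE, edgeR adjusted p 0.846). Of these 4 genes, 3 overlapped between the groups and 0 were called, where 20.0% of all genes did not overlap and 0.0579% were called.

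**Figure D4:**
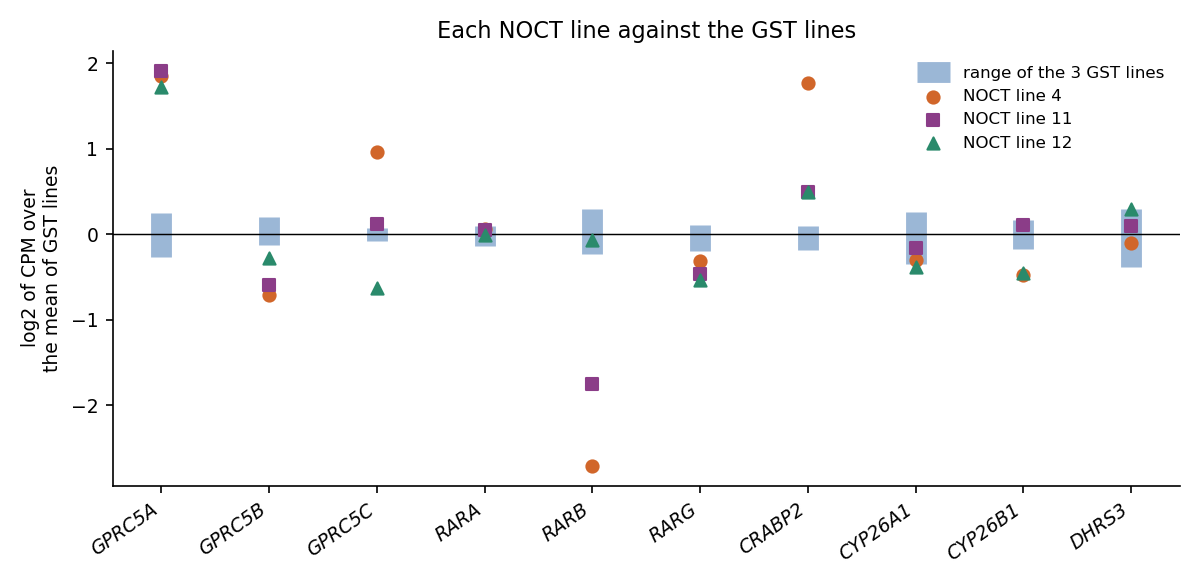
Log2 of the CPM in each NOCT line over the mean of the GST lines, for each of the 10 genes, with the range of the 3 GST lines as a blue band. The 3 NOCT lines lie together for GPRC5A, RARA, RARG and CYP26A1 and apart for RARB, GPRC5C and CRABP2.

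Taking the 9 genes without GPRC5A together, 0 passed over all genes in edgeR, where 0.0579% of all genes did (0.0232% higher and 0.0348% lower in NOCT lines), and 0 passed in DESeq2, where 2.94% did. An unadjusted p under 0.05 was found for 3 of the 9 (CRABP2 higher, GPRC5B and RARG lower), where 13.9% of all genes had one. The groups did not overlap for the same 3 of 9, where the share over all genes was 20.0%. Their median log2 fold change was -0.25, beside 0.00465 over all genes. Line by line, 2 of the 9 were above and 4 below the GST range in NOCT line 4, 2 above and 3 below in line 11, and 1 above and 5 below in line 12. Over all genes, 29.3% to 33.1% were above and 28.3% to 32.9% below the GST range in a NOCT line.

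Ordered by TPM, which allows genes to be compared per length, RARA led in GST lines at 17.8 ± 1.98 TPM (SD, n = 3), followed by DHRS3 at 13.95 ± 3.62, RARB at 11.1 ± 2.62 and GPRC5A at 10.7 ± 2.39. These 4 overlapped from one to the next. Below a gap came CRABP2 at 5.26 ± 0.604, RARG at 4.33 ± 0.511, CYP26B1 at 4.07 ± 0.635 and GPRC5B at 3.40 ± 0.436 TPM, each overlapping the next. GPRC5C at 2.56 ± 0.127 and CYP26A1 at 1.41 ± 0.271 TPM were lower without overlap. In NOCT lines GPRC5A led at 40.4 ± 3.98 TPM, clear of RARA at 19.3 ± 1.31 and DHRS3 at 15.8 ± 1.42, while CRABP2 at 11.7 ± 6.997 and RARB at 5.34 ± 4.67 TPM overlapped their neighbours. CYP26A1 was again the lowest, at 1.24 ± 0.125 TPM.

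The wider pathway was described with 7 lists of genes. Without GPRC5A the lists hold 81 genes, of which 56 were tested. In edgeR 0 of them were called, and at an unadjusted p of 0.05 there were 7 higher and 3 lower in NOCT lines, where 7.38% and 6.52% of all genes were. Their median log2 fold change was 0.07. DESeq2 called 2 of them, STRA6 and EP300, and 2.94% of all genes.

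Proteins that take up or carry retinoids had 5 of 9 genes tested, and all 5 had fitted values above 0, with 0 called. Over all genes tested, 8747 of 17261 had fitted values above 0 and 0.0579% were called. STRA6, the membrane receptor for retinol bound to its plasma carrier and a known retinoic acid target, was at 3.49, 5.25 and 2.46 CPM in GST lines 2, 8 and 9. It was at 11.2, 13.9 and 5.17 CPM in NOCT lines 4, 11 and 12, so line 12 fell within the GST range. Its log2 fold change was 1.43 ± 0.40 (SE, edgeR adjusted p 0.205), against 1.74 ± 0.29 (edgeR adjusted p 0.0154) without NOCT line 12 and 1.43 (adjusted p 0.0152) in DESeq2.

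Enzymes that interconvert retinol, retinal, retinoic acid and retinyl esters had 15 of 25 genes tested. Of these, 10 had fitted values above 0 and 5 below, 0 were called, and the median was 0.15. Of all 17261 genes tested, 8747 were above 0 and 8514 below, and 0.0579% were called. RDH11, a retinal reductase, was at 60.1 to 80.5 CPM in GST lines and 84.6 to 101 CPM in NOCT lines, and its fitted difference was 0.42 ± 0.13 on the log2 scale (SE, edgeR adjusted p 0.228). Of the CYP26 enzymes 3 of 3 were tested and 0 called, all with fitted values below 0, as were 8514 of all 17261 genes. Of the 11 receptor cofactors, 0 were called and the median was 0.03. EP300, a histone acetyltransferase and coactivator, was at 244, 239 and 257 CPM in GST lines and at 322, 334 and 332 CPM in NOCT lines. Its log2 fold change of 0.42 ± 0.08 (SE) did not pass in edgeR (adjusted p 0.120) and passed in DESeq2 (adjusted p 0.00209).

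Genes known to respond to retinoic acid, GPRC5A left out, had 23 of 32 tested. Of these 0 were called, 13 had fitted values above 0 and 10 below, and 4 had an unadjusted p under 0.05, all higher in NOCT lines, where 7.38% of all genes did. The median was 0.07. The 9 below the filter included RARRES1, RARRES2 and RARRES3, genes named for their response to retinoids, which had at most 0.0492 CPM in a library.

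Without NOCT line 12, 4 of the 57 pathway genes tested were called: RARB, STRA6, EP300 and NR2F1. Without a filter on low counts the same 4 were called, of 73 tested. Those fits called 5.42% and 2.57% of all genes. NR2F1, an orphan nuclear receptor gene induced by retinoic acid, is named here because it was called in those fits, after its values were seen. It was at 31.0, 34.6 and 33.5 CPM in GST lines 2, 8 and 9. In NOCT lines 4, 11 and 12 it was at 11.1, 15.03 and 32.4 CPM, so that, as for RARB, lines 4 and 11 were below every GST line and line 12 was not. Its log2 fold change was -0.77 ± 0.35 (SE, edgeR adjusted p 0.377) with all lines and -1.34 ± 0.16 (edgeR adjusted p 0.00434) without line 12.

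**Figure D5:**
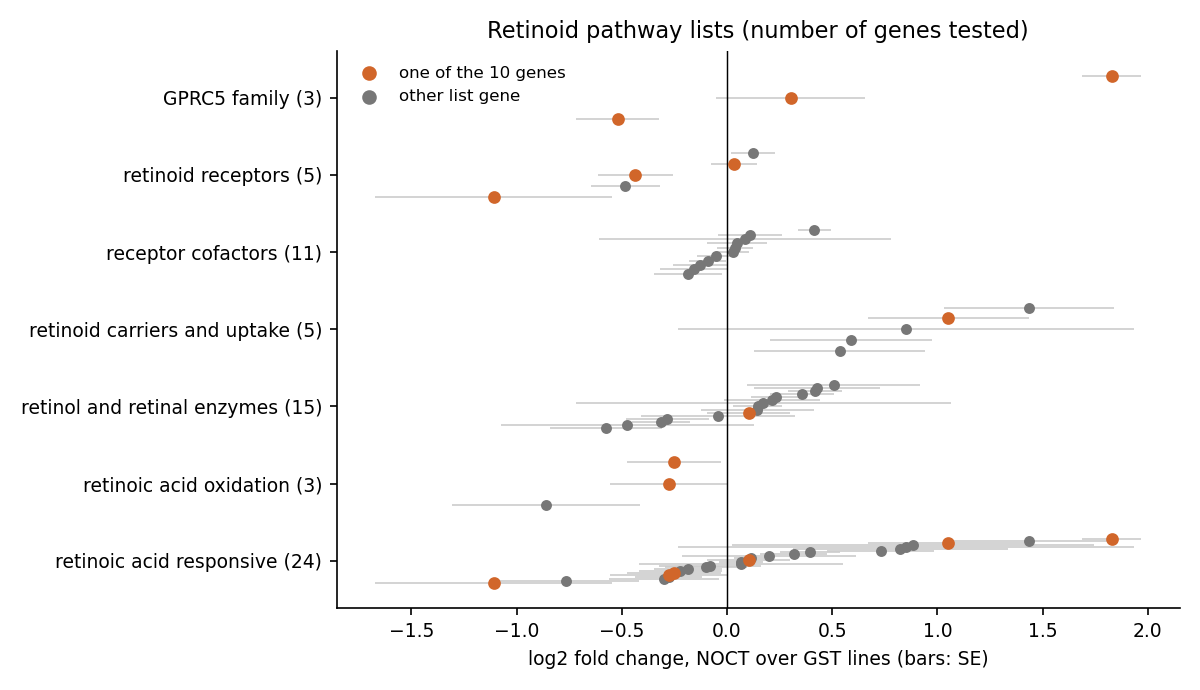
Log2 fold change between NOCT and GST lines (bars: SE) of each tested gene in the 7 lists, with the 10 genes in orange, other list genes in grey and the number tested beside each list name. GPRC5A at 1.83 lies beyond all others, and RARB at -1.11 is the lowest.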

How the data were processed

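Each library has a deposited file of raw read counts by gene, made by the authors with STAR 2.5.2b and HTSeq 0.6.1p1 on GRCh38, per the submitters' processing notes; the annotation release is not given in the sources used here. Libraries were strand-specific, per the labels' protocols. TPM values are the authors' deposited table. The authors' deposited DESeq2 1.16.1 table holds for each row a mean normalised signal, a log2 fold change, a test score, and p-values before and after adjustment; its direction was read from the construct rows. Rows that name no gene, which hold 42.9% to 47.1% of the counts in each file, were left out.

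Genes were kept with filterByExpr and scaled with TMM factors, and the 3 NOCT lines were set against the 3 GST lines in edgeR 4.0.16 in R 4.3.3 (quasi-likelihood test, Benjamini-Hochberg adjustment over 17261 genes), after a test on simulated data. CPM uses the same scaling. Standard errors come from the F statistic. Alternatives used DESeq2 1.42.0, limma 3.58.1, other scalings, filters and pseudocounts (1 and 0.1 on TPM), an offset for neighbours, and omission of each line. Coordinates are from GENCODE 29 on GRCh38 and windows from RefSeq.

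The members and lists were chosen with earlier results of these data known. The 10 members are all named, then any list gene that passed, or else the one with the smallest p and a mean of at least 1 CPM, the 5 genes nearest to GPRC5A in pattern, and its 2 tested neighbours on each side. NR2F1, the RARRES genes and single marker genes were named after their values were seen.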

Additional observations from a re-analysis of the deposited data

How the results depend on the processing

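GPRC5A, chosen on these same values, kept a log2 fold change of 1.71 to 1.98 in the 14 alternatives. Leaving out one line gave 1.71 to 1.97. The count of all genes called moved from 10 to 22 when scaled by spike-in totals (median log2 fold change of all genes then 0.15), to 888 without a filter, 508 in DESeq2, 16 in limma voom and 35 with the neighbour offset, and leaving out one line gave 0 to 970 (0, with 1488 at an unadjusted p under 0.05, without GST line 9). Of the 9 other genes, 1 (RARB) was called without a filter, and leaving out one line gave 0 to 1. Of the pathway genes, 4 of 73 tested were called without a filter and 2 of 56 in DESeq2, and leaving out one line gave 0 to 4. Leaving out one line changed the sign for RARA (-0.033 to 0.088), DHRS3 (-0.056 to 0.27) and GPRC5C (-0.20 to 0.60), none called. GPRC5B, RARG, CRABP2, CYP26A1, CYP26B1 and RARB kept their direction in all 14. The cause of these shifts was not tested. Counts of 24 to 47 per GST library limit CRABP2 and CYP26A1. No paired analysis was possible because the groups share no replicate number.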
